A study of Danio rerio with 10 samples.

Results

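The lens crystallin and lens membrane genes of zebrafish were followed in whole embryos mutant for both rbpms2a and rbpms2b, which encode RNA-binding proteins, and in their siblings. They were taken by gene symbol: every entry beginning with cryaa, cryab, cryba, crybb, crybg, crygm, crygn, crygs or lim2., together with mipa and mipb. The rule found 64 of the 32266 gene IDs in the deposited table: 3 alpha crystallins, 7 beta A and 6 beta B crystallins, crybgx, 20 gamma crystallins of the M2d series, 20 other gamma crystallins (14 M, 2 N and 4 S) and 7 lens membrane genes. The mutants were rbpms2a-/-; rbpms2b-/- embryos picked out by eye at 33 hours post fertilization (hpf). The controls were siblings of the same age, labelled wt, whose single genotypes are not given and which, being sorted by eye, may include carriers of either mutation. Each group had 5 libraries of polyadenylated RNA, numbered 1, 2, 3, 4 and 6, each from a pool of 10 whole embryos. The labels do not say whether the pools came from separate clutches, so p-values measure the spread between these pools. The lens is a small part of a whole embryo, and fewer lens fibre cells cannot be told apart from less RNA per cell.

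The vertebrate lens focuses light because its elongated fibre cells fill with crystallins, proteins packed densely enough to raise the refractive index. Alpha crystallins are small heat shock proteins that act as chaperones, whereas beta and gamma crystallins are related structural proteins built of the same folding motif, and fish carry an expanded set of methionine-rich gamma M crystallins. Fibre membranes hold aquaporin 0, the water channel and adhesion protein encoded by mipa and mipb in zebrafish, and Lim2, a tetraspan membrane protein of fibre cell junctions.

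Total counts ran from 21.5 to 36.0 M (M, 1000000 counts) per library. Of the targeted genes, rbpms2a stood at 2.42, 2.93, 3.00, 3.91 and 3.58 CPM (counts per 1000000, scaled for library composition) in mutants 1, 2, 3, 4 and 6, against 5.01, 4.60, 4.25, 7.05 and 5.31 CPM in the controls of the same numbers. All 5 mutant values lay below all 5 control values, with a log2 fold change of -0.73 (SE 0.171; BH adjusted p = 1.00 in edgeR's quasi-likelihood test, and 0.00741 once the replicate number is a block). Rbpms2b had a log2 fold change of 0.13 (SE 0.211). Libraries with the same number resembled each other across all genes tested, with correlations of 0.63 to 0.67 after removal of the group means. Mutant and control libraries of different numbers gave -0.58 to 0.59.

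Levels are given first, as FPKM (fragments per kilobase of gene per 1000000), the deposited measure that allows comparison between genes. Levels differed widely within the classes. Enough counts for testing were found for 43 of the 64 genes: 1 alpha, 12 beta, 24 gamma and 6 membrane genes. The other 21 held 375 counts in all 10 libraries together, and none more than 106. Of these, 4 genes, crygs3, crygm1, crygm2a and crygm7, had 0 counts in all 10 libraries, which over 323308981 counts allows up to 0.00928 CPM. The deposited FPKM columns cannot separate such genes from silence. All 122 zero-count values among the 64 genes carry an FPKM between 0.02 and 0.43, so a level in that range is no sign of expression.

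**Figure D1:**
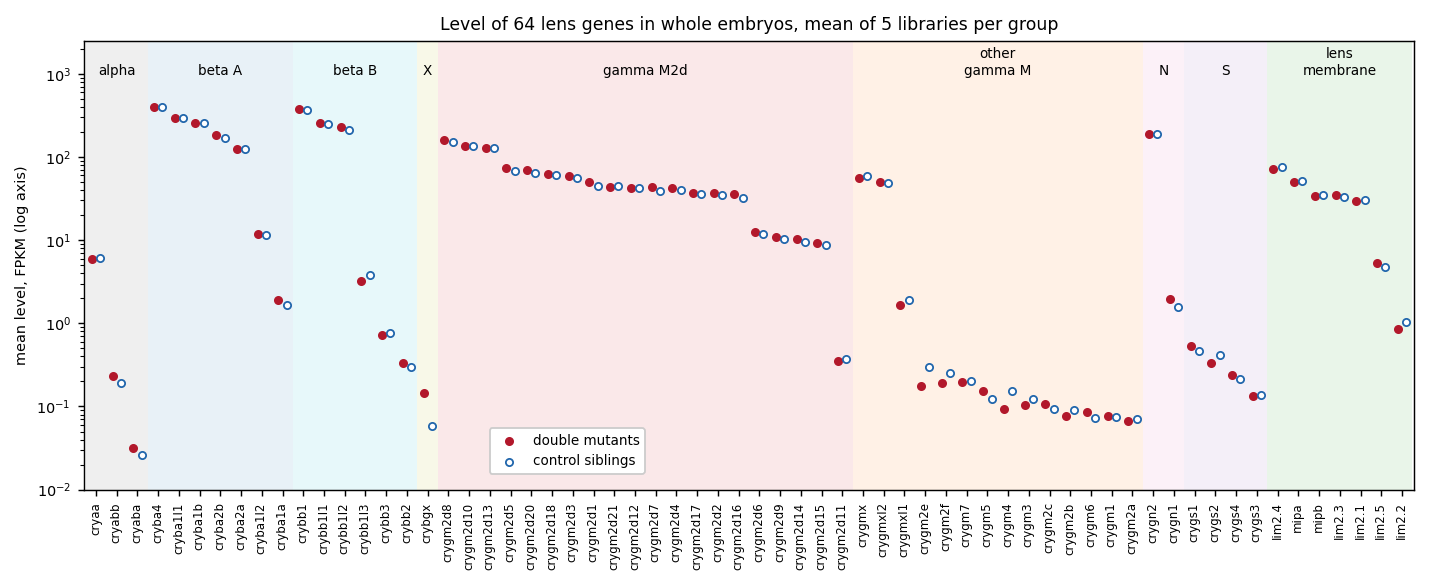
Mean level in FPKM on a log axis of each of the 64 lens genes, with filled points for the double mutants and open points for the control siblings (5 libraries each), grouped by class and ordered by level within each class. Beta crystallins reach 399 FPKM (mean of 10 libraries), cryaa stands at 6.03, and most gamma M genes outside the M2d series lie under 1. Deposited FPKM of up to 0.43 also occurs at 0 counts.

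Beta crystallins were the most abundant class. Their 12 tested genes had a median of 199 FPKM over the 10 libraries, against 42.5 for the 19 tested gamma M2d genes, 49.9 for the 5 other tested gamma genes and 34.4 for the 6 tested membrane genes. The highest of the acidic beta A genes were cryba4 at 399 FPKM (287 to 514 over the libraries), cryba1l1 at 295 FPKM (208 to 389), cryba1b at 258 FPKM (158 to 343) and cryba2b at 178 FPKM (126 to 244). Among the basic beta B genes, crybb1 averaged 376 FPKM (195 to 534), crybb1l1 253 FPKM (148 to 359) and crybb1l2 220 FPKM (147 to 309). The ranges of neighbours in this order overlapped. At the other end crybb1l3 averaged 3.56 FPKM, cryba1a 1.78 FPKM and crybb3 0.747 FPKM, and crybb2 had 6 counts in all. Crybgx, with 8 counts in all, was likewise too low to be tested.

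Several beta A and beta B genes stand next to each other in the zebrafish genome, and their levels did not follow one pattern. In the RefSeq gene table for assembly GRCz12tu, matched by symbol, cryba4 lies beside crybb1 with no gene between them, and both were high (399 and 376 FPKM). Cryba1l1 lies beside crybb1l1 in the same way, at 295 and 253 FPKM. Cryba1a and crybb1l3 are also adjacent and were both low, at 1.78 and 3.56 FPKM. The pair cryba1l2 and crybb1l2 differed: cryba1l2 averaged 11.6 ± 1.72 FPKM and crybb1l2 220 ± 54.8 FPKM (SD, 10 libraries), and cryba1l2 was the lower one in 10 of 10 libraries. These pairs were looked up after the levels had been seen.

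The alpha crystallins were low. Cryaa, the lens chaperone alpha A crystallin, averaged 6.03 FPKM (4.01 to 8.40), below 9 of the 12 tested beta genes. Cryabb had 50 counts in all 10 libraries and cryaba, the other zebrafish alpha B copy, had 1. The alpha B values were too low for a test.

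Among the gamma crystallins, the M2d series and crygn2 carried most of the signal. Crygn2 averaged 189 FPKM (146 to 228), and its relative crygn1 1.76 FPKM (1.13 to 2.46). The most abundant M2d genes were crygm2d8 at 157 FPKM (109 to 240), crygm2d10 at 136 FPKM (86.0 to 205), crygm2d13 at 129 FPKM (82.9 to 202) and crygm2d5 at 70.7 FPKM (36.3 to 134). The other 15 tested M2d genes lay between 9.03 and 67.3 FPKM. Outside the series, crygmx averaged 56.9 FPKM and its neighbour crygmxl2 49.9 FPKM, while crygmxl1 averaged 1.79 FPKM. The remaining 11 gamma M genes had at most 18 counts each. Gamma S genes, whose mammalian counterpart is abundant in the mature lens, were barely detected: crygs1 had 62 counts in all, crygs2 51, crygs4 2 and crygs3 0.

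In gene order the M2d genes stood together, while the likewise abundant crygmx and crygmxl2 lay outside their run. In the RefSeq table for GRCz12tu, 37 protein-coding genes from crygm7 to crygs3 form a run that holds 33 of the lens genes and 4 others. Inside it, 21 crygm2d genes follow one another without interruption, of which 20 were in the deposited table and 19 were tested (crygm2d19 was not analysed here). The exception, crygm2d11, had 39 counts. On both flanks stand 13 further gamma genes, of which crygmxl1 alone was tested, and the other 12 held 46 counts in all. The deposited counts used build GRCz10. In a separate table of gene names 2 gamma IDs carry another M2d symbol: crygm2d17 for crygm2d8, and crygm2d18 for crygm2d9. The place of a single M2d gene within the run, these 2 among them, is therefore uncertain. Reads were also divided among copies: 19 of the 20 M2d genes had counts that were not whole in at least 1 library, and crygm2d13 alone was whole in all 10. Values of single M2d genes are therefore less certain than their sum.

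**Figure D2:**
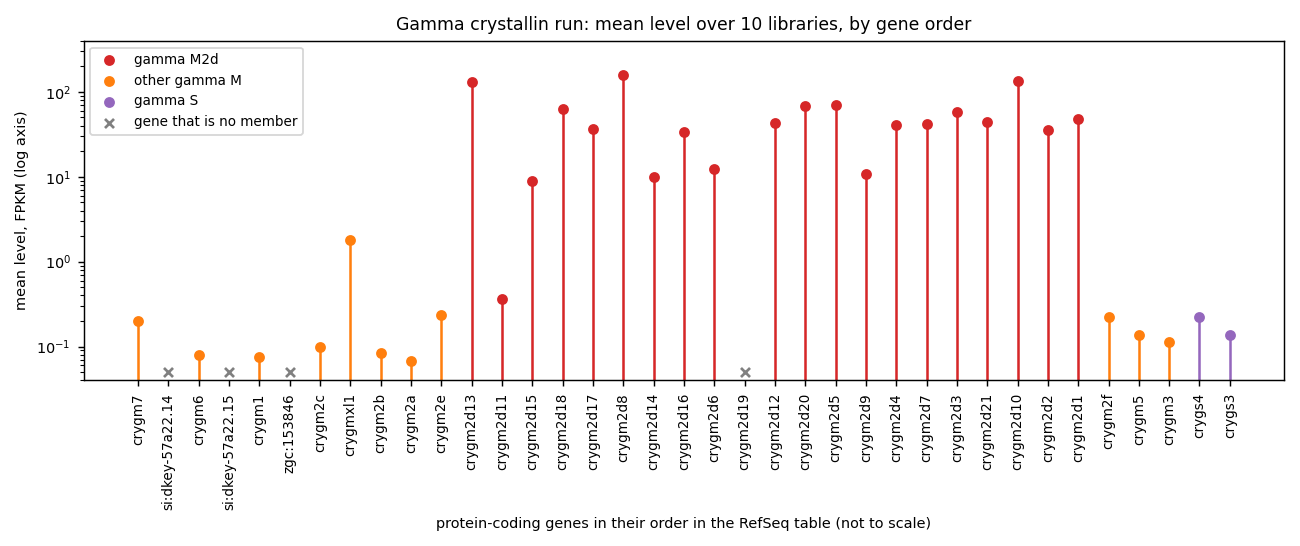
Mean level over 10 libraries in FPKM, on a log axis, of the gamma crystallin run in the gene order of the RefSeq table (evenly spaced, not to scale), with crosses for the 4 genes of the run that are not among the 64. The crygm2d genes stand together at up to 157 FPKM, with crygm2d11 at 0.361 FPKM, and the flanking genes lie under 1 FPKM except crygmxl1. Deposited FPKM of up to 0.43 also occurs at 0 counts.

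Of the membrane genes, 6 of 7 were tested. Lim2.4 averaged 73.6 FPKM (46.2 to 99.3), mipa 50.2 FPKM (32.6 to 65.0), mipb 34.6 FPKM (18.4 to 47.1), lim2.3 34.1 FPKM (25.6 to 46.3), lim2.1 29.8 FPKM (24.3 to 33.9) and lim2.5 5.01 FPKM (2.16 to 8.91). Lim2.2 had 106 counts in all. Apart from lim2.5 and lim2.2, the membrane genes had overlapping ranges with their neighbours in this order.

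The classes were then summed in each library as CPM. The 13 beta crystallins summed to 1713, 1176, 1508, 2442 and 2522 CPM in mutants 1, 2, 3, 4 and 6, against 1443, 1758.5, 1547, 2174 and 2348 CPM in the controls of the same numbers. The 20 gamma M2d genes summed to 466, 360, 381, 754 and 965 CPM in the mutants and to 397, 458, 412, 746 and 839 CPM in the controls. In both groups, numbers 4 and 6 were the highest for either class, and the ranges of mutants and controls overlapped throughout.

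The smaller classes had the same high libraries, alpha excepted. The 20 other gamma genes summed to 207, 165, 189, 260.3 and 284 CPM in the mutants and 187, 214, 193, 273 and 261 CPM in the controls, in the order of the numbers. The 7 membrane genes summed to 304, 192, 246, 383 and 375 CPM in the mutants and 254, 300.1, 263, 352 and 377 CPM in the controls. The 3 alpha genes, which are nearly all cryaa, summed to 5.18, 5.61, 7.25, 8.49 and 10.7 CPM in the mutants and 5.15, 9.10, 9.11, 7.00 and 8.38 CPM in the controls.

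All 64 genes together made up between 0.190 and 0.416% of a library size scaled for composition. Their sum averaged 2986 ± 975 CPM in mutants and 2967 ± 690 CPM in controls (SD, n = 5 each). The shares of the classes in that sum differed between genotypes by less than 1 SD. Beta crystallins took 62.9 ± 1.57% of it in mutants and 62.7 ± 1.42% in controls, and gamma M2d genes took 19.1 ± 2.65% in mutants and 18.8 ± 2.45% in controls (SD, n = 5 each). The M2d share was highest in numbers 4 and 6 of both groups: 19.6 and 23.2% in mutants 4 and 6, and 21.0 and 21.9% in controls 4 and 6. In the other 6 libraries it lay between 16.3 and 19.0%.

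**Figure D3:**
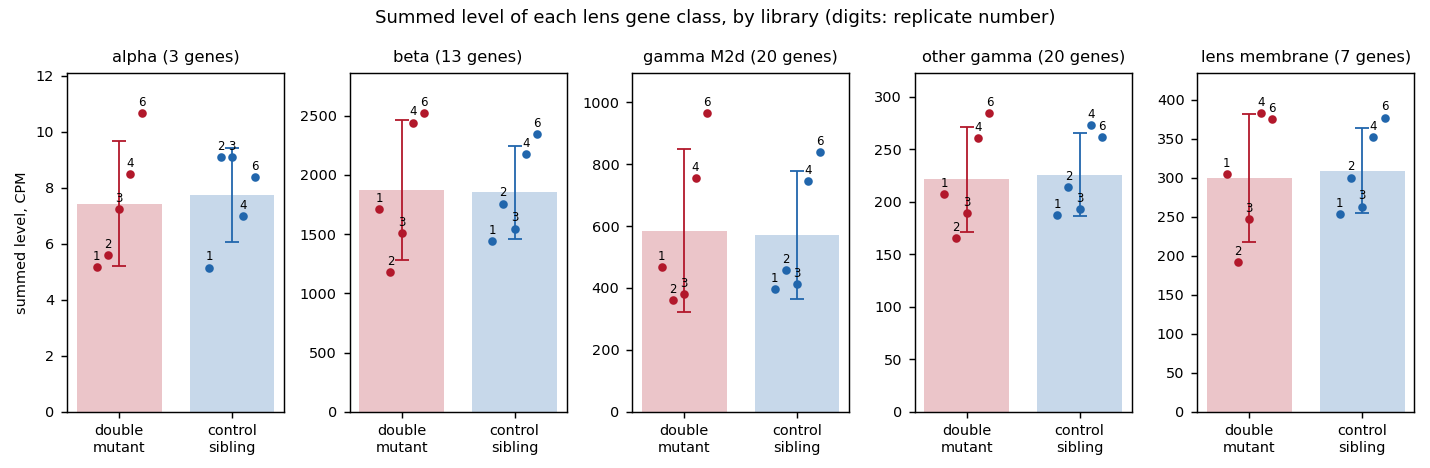
Summed CPM of each class in every library, with double mutants to the left of control siblings; bars are means of 5 libraries, error bars are 1 SD, and digits give the replicate number. In every class but alpha the points 4 and 6 lie highest in both groups, and mutant 2 is the lowest mutant.

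Most lens genes, above all those of the M2d series, differed between replicate numbers. With genotype kept in the model, edgeR's quasi-likelihood test of the replicate numbers, a test chosen after seeing the data, called 32 of the 43 tested lens genes at a BH adjusted p under 0.05. That is 74.4%, where 43.3% of all 20802 tested genes were called. By class the calls were 1 of 1 alpha, 6 of 12 beta, 18 of 19 gamma M2d, 4 of 5 other gamma and 3 of 6 membrane genes. Beta and membrane genes were thus near the share of all genes. The M2d genes, among which reads were divided, are not independent calls. Numbers 4 and 6 lay above numbers 1, 2 and 3 in both groups for 34 of 43 lens genes, against 13.6% of all genes tested. No label says what a replicate number stands for.

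By the median of each lens gene class, the M2d genes had the widest spread between numbers. The ratio of the highest to the lowest number (geometric mean of its mutant and control library) had a median of 2.30 over the 19 M2d genes, with a range of 1.58 to 5.93. The median was 1.64 for beta, 1.69 for other gamma and 1.68 for membrane genes, and 1.37 for all genes tested. Cryaa, the only tested alpha gene, gave 1.88, and the highest membrane gene, lim2.5, gave 3.50. Crygm2d14, chosen after its values were seen, gave the largest M2d ratio: it stood at 4.84, 1.66, 2.25, 5.94 and 13.0 CPM in mutants 1, 2, 3, 4 and 6, against 2.93, 3.05, 2.11, 5.16 and 12.9 CPM in controls. Both libraries of number 6 were thus the highest of their group. The highest number was 6 for 32 of the 43 genes and 4 for 9. The lowest was 2 for 20, 3 for 15 and 1 for 6, and none of these counts was taken over all genes. Exceptions were crygn1 and crybb3, whose highest number was 2 and lowest 6, neither called (adjusted p = 0.765 and 0.118 in the same edgeR test).

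Whether mutation of both rbpms2 genes changed the lens genes was the comparison of the design. No lens gene passed the test. In edgeR's quasi-likelihood test, 0 of 43 had a BH adjusted p under 0.05 (0.00481% of all genes did) and 0 had an unadjusted p under 0.05 (1.95% of all genes did). The tests by DESeq2 and by limma on log2 FPKM also gave 0 at both thresholds. Over all genes, 483 of 27168 had an unadjusted p under 0.05 in DESeq2 and 488 of 20802 in limma. The adjusted threshold was passed by 4 and 2 genes. Log2 fold changes (mutants over controls) ran from -0.26 to 0.31 with a median of 0.02, and the median of all genes was 0.00. Of the 43 estimates, 26 were above 0 and 17 below. The 95% intervals differed in width between genes: they reached from -0.32 to 0.28 for crygn2 and from -1.13 to 1.37 for crygm2d14, the widest. These intervals ignore the pairs of equal number, as do those given below unless marked as blocked. They hold the changes that the fit does not exclude and are not a limit of detection. With the block the intervals reached from -0.13 to 0.08 for crygn2 and from -0.24 to 0.41 for crygm2d14. For mipa (-0.48 to 0.34) and crybb1 (-0.64 to 0.55) they were wider than without it. The ranges of the groups overlapped for 43 of 43 genes, where 0.466% of all genes had ranges that did not.

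**Figure D4:**
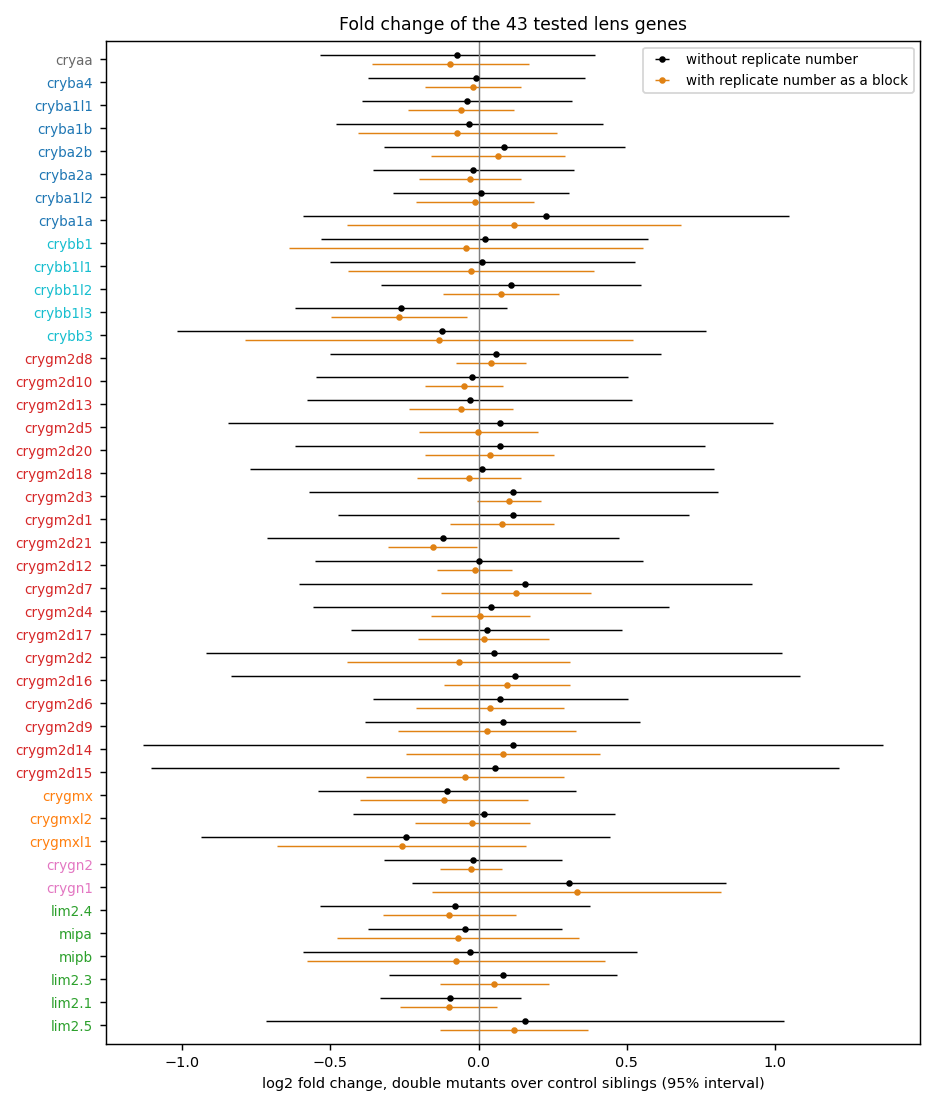
Log2 fold change of double mutants over control siblings with its 95% interval for the 43 tested lens genes, in black without the replicate number and in orange with it as a block. All black intervals cross 0, and in orange those of crybb1l3 and crygm2d21 lie below it.

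In the alpha class, cryaa stood at 4.81, 5.58, 7.09, 8.29 and 10.5 CPM in mutants 1, 2, 3, 4 and 6, against 5.09, 8.93, 8.90, 6.94 and 8.23 CPM in controls. The mutant library was the lower one in numbers 1, 2 and 3 and the higher one in 4 and 6. The log2 fold change was -0.07 (95% interval -0.54 to 0.39).

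For the beta A crystallins, cryba4 stood at 192, 150.5, 182, 252 and 274 CPM in mutants 1, 2, 3, 4 and 6, against 165, 202, 183, 237 and 270.1 CPM in controls. Its log2 fold change was -0.01 (95% interval -0.37 to 0.36), with mutant 2 the lowest library. Cryba1l1 stood at 197, 149.8, 182, 241 and 285 CPM in mutants, against 181, 210.0, 183, 258 and 253 CPM in controls (log2 fold change -0.04, interval -0.39 to 0.31). Here too mutant 2 was the lowest library and mutant 6 the highest. Cryba1b stood at 207, 135, 167, 291 and 293 CPM in mutants, against 186, 213, 179, 260.2 and 278 CPM in controls (log2 fold change -0.03, interval -0.48 to 0.42). Cryba2b stood at 108, 80.5, 93.8, 152 and 153 CPM in mutants, against 84.5, 104, 97.4, 131 and 137 CPM in controls (log2 fold change 0.09, interval -0.32 to 0.49). All 4 had the mutant library higher in number 1 and lower in number 2, and the groups overlapped.

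The 3 most abundant beta B genes followed the same libraries. Crybb1 stood at 262, 146, 216, 397 and 407 CPM in mutants 1, 2, 3, 4 and 6, against 208, 273, 230.4, 327 and 369 CPM in controls (log2 fold change 0.02, interval -0.53 to 0.57). Crybb1l1 stood at 399, 267, 369, 647 and 619 CPM in mutants, against 327, 427, 376, 548 and 606 CPM in controls (log2 fold change 0.01, interval -0.50 to 0.53). Crybb1l2 stood at 225, 153, 185, 305 and 327 CPM in mutants, against 185, 200.2, 181, 260.3 and 282 CPM in controls (log2 fold change 0.11, interval -0.33 to 0.55). In all 3 genes, mutant 2 was the lowest of the 10 libraries.

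Crybb1l3, a low beta B gene, had the smallest unadjusted p of the lens genes. It stood at 3.28, 2.84, 2.61, 4.09 and 3.86 CPM in mutants 1, 2, 3, 4 and 6, against 3.64, 3.61, 3.41, 5.08 and 4.29 CPM in controls. The mutant library was the lower one in 5 of 5 pairs, although the groups overlapped. This count comes from the same values as the p by which the gene was picked. The log2 fold change was -0.26 (SE 0.164; adjusted p = 1.00 in edgeR's quasi-likelihood test). The blocked fit gave -0.27 (SE 0.108, interval -0.50 to -0.04; adjusted p = 0.382 in edgeR).

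Among gamma M genes, crygm2d8 stood at 58.8, 49.2, 49.9, 91.2 and 108 CPM in mutants 1, 2, 3, 4 and 6, against 48.2, 55.2, 54.4, 86.1 and 99.8 CPM in controls (log2 fold change 0.06, interval -0.50 to 0.62). Crygm2d10 stood at 64.5, 49.8, 55.2, 93.6 and 115 CPM in mutants, against 58.4, 64.3, 59.8, 98.4 and 104 CPM in controls (log2 fold change -0.02, interval -0.55 to 0.50). Crygm2d13, the M2d gene whose counts were whole, stood at 41.7, 31.4, 36.8, 58.3 and 78.6 CPM in mutants, against 37.7, 43.4, 37.5, 66.1 and 67.7 CPM in controls (log2 fold change -0.03, interval -0.58 to 0.52). In these 3 genes, numbers 4 and 6 were the highest in both groups, and the groups overlapped. Crygm2d5 stood at 30.4, 23.1, 22.7, 69.1 and 86.4 CPM in mutants, against 26.3, 31.5, 26.6, 60.0 and 76.5 CPM in controls (log2 fold change 0.07, interval -0.85 to 0.99). Its spread between numbers was wider, and its groups overlapped too.

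With the block, crygm2d21 and crygm2d3 had the smallest unadjusted p after crybb1l3. Crygm2d21 stood at 26.7, 20.4, 21.0, 39.3 and 51.0 CPM in mutants 1, 2, 3, 4 and 6, against 28.7, 29.8, 22.0, 44.0 and 47.9 CPM in controls. Mutants were the lower ones in numbers 1 to 4, with a log2 fold change of -0.12 (SE 0.273) without the block and -0.15 (SE 0.0706, adjusted p = 0.456 in edgeR) with it. Crygm2d3 stood at 33.0, 28.4, 27.8, 51.9 and 74.1 CPM in mutants, against 27.7, 28.3, 28.0, 48.8 and 66.3 CPM in controls. Its blocked log2 fold change was 0.10 (SE 0.0508, adjusted p = 0.498 in edgeR).

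Of the gamma N genes, crygn2 stood at 146, 116, 132, 175 and 185 CPM in mutants 1, 2, 3, 4 and 6, against 133, 141, 129.7, 183 and 176 CPM in controls. Its interval was among the narrowest (log2 fold change -0.02, -0.32 to 0.28). Crygn1 stood at 1.59, 1.02, 1.22, 1.43 and 1.11 CPM in mutants, against 0.740, 1.58, 1.03, 1.04 and 0.731 CPM in controls. Mutants were above controls in all numbers but 2. The log2 fold change was 0.31 (SE 0.243, interval -0.22 to 0.83; adjusted p = 1.00 in edgeR's quasi-likelihood test). The gamma S genes crygs1 (0.215 ± 0.0575 CPM in mutants and 0.183 ± 0.112 CPM in controls) and crygs2 (0.128 ± 0.0845 CPM in mutants and 0.178 ± 0.126 CPM in controls; SD, n = 5 each) were too low to be tested.

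The membrane genes gave the same picture. Mipa stood at 134, 86.8, 122, 173 and 145 CPM in mutants 1, 2, 3, 4 and 6, against 112, 138, 129, 148 and 154 CPM in controls (log2 fold change -0.05, interval -0.37 to 0.28). Mipb stood at 70.4, 36.0, 45.2, 90.7 and 93.5 CPM in mutants, against 55.5, 64.0, 48.8, 80.6 and 94.5 CPM in controls (log2 fold change -0.03, interval -0.59 to 0.53). Mutant 2 was the lowest library for both aquaporin genes. Lim2.4 stood at 62.2, 38.5, 45.9, 69.4 and 84.4 CPM in mutants, against 52.3, 57.7, 48.2, 75.1 and 84.4 CPM in controls (log2 fold change -0.08, interval -0.53 to 0.38). Lim2.3 stood at 16.9, 14.8, 17.3, 26.8 and 26.7 CPM in mutants, against 14.9, 18.9, 19.4, 23.0 and 20.8 CPM in controls (log2 fold change 0.08, interval -0.30 to 0.47). The groups overlapped for both genes. Lim2.1 varied least, at 17.0, 13.8, 14.5, 17.6 and 19.2 CPM in mutants, against 15.0, 18.5, 16.2, 20.0 and 18.0 CPM in controls (log2 fold change -0.10, interval -0.33 to 0.14). Lim2.5 varied most, at 3.45, 1.94, 1.77, 4.94 and 6.46 CPM in mutants, against 3.29, 2.08, 1.48, 4.97 and 4.97 CPM in controls (log2 fold change 0.16, interval -0.72 to 1.03).

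Taking the replicate number as a block changed no adjusted call: 0 of 43 lens genes passed in edgeR, where 0.255% of all genes did. At an unadjusted p under 0.05, 2 of 43 lens genes were called (10.5% of all genes), both lower in mutants (4.84% of all genes), namely crybb1l3 and crygm2d21. The share called lower was near that of all genes, and a count of 2 is too small to read further.

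The direction within a pair was shared by most lens genes in numbers 1, 2, 3 and 6, but differed between pairs, and in number 4 the genes were divided. Mutant 1 was the lower library for 3 of 43 genes, mutant 2 for 41, mutant 3 for 36, mutant 4 for 18 and mutant 6 for 3. Over all genes tested the mutant was the lower one for 49.5% in number 2, and for 49.0 to 50.2% in the other numbers. The median log2 ratio of the 43 genes was 0.23, -0.45, -0.10, 0.08 and 0.17 in numbers 1, 2, 3, 4 and 6. Mutant 2 was the lowest mutant library for 34 of 43 genes, whereas control 2 was the lowest control library for 0. These 2 counts were not taken over all genes, so they are not read as a trait of the lens genes.

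For the summed lens level the pair log2 ratios were 0.24, -0.53, -0.06, 0.12 and 0.12 in numbers 1, 2, 3, 4 and 6, a mean of -0.02. By class the mean was -0.08 for alpha, -0.02 for beta, -0.00 for gamma M2d, -0.04 for other gamma and -0.07 for membrane genes. Without both libraries of number 2, the blocked edgeR fit gave 8 of 43 lens genes (18.6%) an unadjusted p under 0.05, all of them higher in mutants, where 3.45% of all genes were. Since mutant 2 was the lower library for 41 of 43 genes, leaving this pair out raises most estimates. The genes also moved together within pairs, so the 8 are not separate calls. The 8 were crybb1l2, cryba2b, crybb1, crybb1l1, crygn1, crygm2d1, crygm2d20 and crygm2d3. The smallest adjusted p was 0.337, for crybb1l2 (log2 fold change 0.18, SE 0.0497), so that 0 passed the BH threshold in edgeR's quasi-likelihood test. Leaving out number 1, 4 or 6 moved the median blocked estimate the other way, and leaving out number 3 moved it the same way. Without number 1, 2 of 43 genes, crybb1l3 and lim2.4, were called lower at an unadjusted p under 0.05 in edgeR (3.51% of all genes). Without number 6, 2 of 44, crybb1l3 and crygm2d21, were called lower (4.82% of all genes). Without number 3, 1 of 44, crygm2d3, was called, higher in mutants (1510 of 20893 genes were called in either direction). Without number 4, 0 of 44 were called (3215 of 20750 genes in either direction). The median blocked log2 fold change of the lens genes was -0.02 with all numbers and 0.08 without number 2. It was -0.08 without number 1, 0.00088 without number 3, -0.04 without number 4 and -0.07 without number 6.

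**Figure D5:**
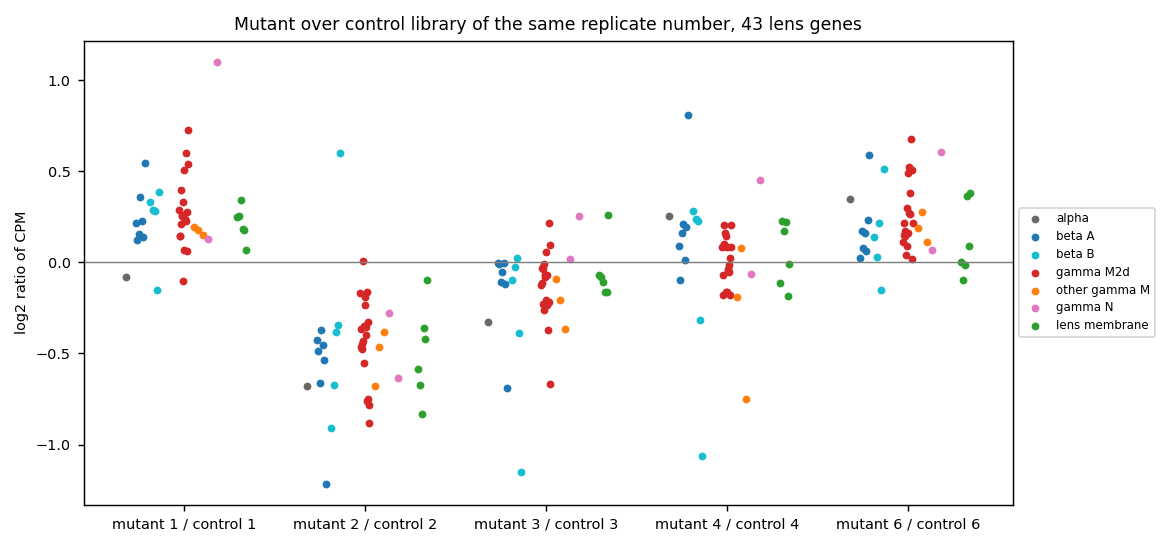
Log2 ratio of the mutant to the control library of the same replicate number for the 43 tested lens genes (points, coloured by class). Almost all points lie above 0 in numbers 1 and 6 (3 of 43 below in each), below 0 in number 2 (41 of 43), and on both sides in number 4.

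Other genes of the lens and eye were counted from lists of genes outside these families. Of 24 tested regulators and fibre genes of the lens, 0 differed between genotypes in edgeR's quasi-likelihood test, at adjusted or unadjusted p under 0.05. With the block 0 passed the adjusted threshold and 5 had an unadjusted p under 0.05. Foxe3, a transcription factor of the lens epithelium, was the one higher in mutants (blocked log2 fold change 0.26, SE 0.121), while the eye regulators pax6b (-0.20, SE 0.0651) and pax6a (-0.14, SE 0.0606), the RNA-binding gene celf1 (-0.10, SE 0.0363) and the ephrin receptor gene epha2a (-0.10, SE 0.0431) were the lower ones, with adjusted p between 0.254 and 0.471 in edgeR and beside 10.5% of all genes called in either direction. Fabp11a, a fatty acid binding protein gene and the most abundant of the list by FPKM, had 67.7 ± 10.1 CPM in mutants and 65.1 ± 6.43 CPM in controls (SD, n = 5 each). Of 16 tested retina genes, 0 differed without the block at either threshold, and with it 4 had an unadjusted p under 0.05, all lower in mutants: rx1, rx2, foxn4 and six6b (adjusted p between 0.211 and 0.454 in edgeR; 4.84% of all genes were called lower). Among the most abundant retina genes by FPKM, neurod4 had 123 ± 24.4 CPM in mutants and 127 ± 8.63 CPM in controls, and mab21l2 64.2 ± 6.95 CPM in mutants and 66.3 ± 4.09 CPM in controls (SD, n = 5 each).

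The replicate numbers moved these lists as well. The test of the replicate numbers called 15 of 24 lens regulators and fibre genes (62.5%), 11 of 16 retina genes (68.8%), 5 of 7 small heat shock genes (71.4%) and 13 of 13 fast skeletal muscle genes, beside 43.3% of all genes. The median ratio of the highest to the lowest number was 1.44, 1.55, 1.61 and 1.95 in that order, beside 1.94 for the 43 lens genes. The largest ratios were 12.7, 7.90, 4.17 and 2.57 in the same order, beside 5.93 for the 43 lens genes. The 12.7 belongs to lgsn, which averaged 0.714 CPM in mutants and 0.660 CPM in controls. A wide spread was thus not particular to the M2d genes. Numbers 4 and 6 lay above the others in both groups for 12 of the 13 muscle genes and 8 of the 16 retina genes. The same held for 8 of the 24 lens regulators and fibre genes, beside 13.6% of all genes. It held for 1 of the 7 small heat shock genes, the family to which alpha crystallins belong. Fast muscle is another tissue differentiating in these whole embryos; its part in the lens values was not tested. Between genotypes, 0 small heat shock and 0 muscle genes were called in edgeR at either threshold without the block. With it 0 small heat shock and 2 muscle genes, pvalb2 and mylpfa, had an unadjusted p under 0.05, both lower in mutants, where 10.5% of all genes were called in either direction and 4.84% were called lower. Hspb1 had 52.1 ± 12.5 CPM in mutants and 53.0 ± 8.87 CPM in controls, hspb8 82.0 ± 11.2 CPM in mutants and 77.0 ± 7.23 CPM in controls, pvalb1 1719 ± 585 CPM in mutants and 1741 ± 604 CPM in controls, and actc1b 8775 ± 2652 CPM in mutants and 9109 ± 3185 CPM in controls (SD, n = 5 each).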

How the data were processed

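The authors deposited 1 table with, per gene and library, an expected count, as RSEM estimates it, and a log2 value, log2(FPKM + 0.1). Per the submitters' processing notes, STAR 2.5.3a, RSEM 1.3.0 and BWA 0.7.12-r1039 were among the tools and the build was GRCz10. Whether counting used the strand is not given in the sources used here, so counts of overlapping genes are uncertain. Counts of near-identical copies are uncertain too, because reads were divided among them. The members and all gene lists were chosen with earlier results of these data known.

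Expected counts were rounded to whole numbers. All genes were fitted in edgeR 4.0.16 (R 4.3.3) with filterByExpr, TMM scaling and the robust quasi-likelihood test, two-sided. P-values were adjusted after Benjamini and Hochberg (BH) over the 20802 genes kept, with a threshold of 0.05. Replicate numbers were read as pairs, since libraries of the same number correlated at 0.63 to 0.67 after removal of the group means (over 0.1 in 5 of 5 pairs). Different numbers gave -0.58 to 0.59, so the cut of 0.1 does not by itself set pairs apart. The common coefficient of variation between libraries was 6.94% with the replicate block and 17.6% without it. Alternatives were DESeq2 1.42.0, limma 3.58.1 on log2(FPKM + 1), no filter, the block, and each library or pair left out. DESeq2 with the block and the test of the replicate numbers were added after seeing the data. Class sums are CPM with TMM factors and have no test.

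The genes named with values were the alpha and membrane genes with a mean of at least 1 CPM, the 4 most abundant of the beta A, beta B, gamma M and gamma N plus S genes by FPKM, and the 3 with the smallest p without and with the block. Other genes named with a count or a level were chosen after their values were seen. All 64 symbols matched the RefSeq table of GRCz12tu, which served for gene order only, and 60 of 64 IDs matched a table of gene names.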

Additional observations from a re-analysis of the deposited data

Results flagged for a closer look

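The 25 genes named by rule and the 5 class sums were examined for a library far from the other 4 of its group, and 1 of these 60 sets of 5 libraries held one, where chance gives about 3.0. Crygs1 had 0.314 CPM in mutant 4, against 0.167 to 0.209 CPM in the other mutants. The gene had 62 counts in all 10 libraries, so the difference rests on few counts.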

How the results depend on the processing

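Without the replicate number 1 of 20802 genes passed the adjusted threshold, with the replicate block 53, with DESeq2 4, with limma on log2(FPKM + 1) 2, and with the block in DESeq2 92; leaving out a library or a pair gave 0 to 365. The replicate block changed no adjusted call of a lens gene. At an unadjusted p under 0.05, 0 lens genes were called without the block (406 of 20802 genes) and 2 with it (2187 of 20802). Without the filter on low counts 1 was called (571 of 27168 genes). It was crybgx, with 8 counts in all, named after its value was seen. DESeq2 called 0 (483 of 27168 genes) and limma 0 (488 of 20802). Leaving out a library gave 0 to 1 (322 to 651 genes), and leaving out a pair gave 0 to 8 (1510 to 3215 genes). The count of 8 came without number 2 (1582 of 20843 genes). The test of the replicate numbers called 23 to 40 lens genes when a number was left out. Without number 4 it called 23 of 44 (52.3%), beside 37.3% of all genes. Without number 2 it called 40 of 43 (93.0%), beside 38.9% of all genes. Without number 1, 3 or 6 it called 36.0 to 37.7% of all genes.

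Among the named genes, lim2.1, crybb1l3 and crygn1 kept the sign of their fold change in all alternatives run. With the block, log2 fold changes changed sign for crybb1 (-0.044), crybb1l1 (-0.026) and crygm2d5 (-0.00083). In DESeq2 with the block they changed sign for the same 3 (-0.050, -0.031 and -0.018), and in limma for cryba4 (0.0058), crybb1 (-0.028) and crybb1l1 (-0.012). Leaving out a library or a pair changed the sign of the other tested genes named at least once, and their log2 fold changes then ranged as follows: cryaa -0.24 to 0.043, lim2.3 -0.035 to 0.17, lim2.4 -0.23 to 0.039, lim2.5 -0.13 to 0.34, mipa -0.16 to 0.071, mipb -0.19 to 0.12, cryba4 -0.12 to 0.093, cryba1l1 -0.17 to 0.054, cryba1b -0.16 to 0.094, cryba2b -0.026 to 0.19, and, for the rest, crybb1 -0.14 to 0.18, crybb1l1 -0.14 to 0.15, crybb1l2 -0.029 to 0.23, crygm2d8 -0.14 to 0.22, crygm2d10 -0.22 to 0.11, crygm2d13 -0.26 to 0.093, crygm2d5 -0.27 to 0.36, crygn2 -0.10 to 0.054, crygm2d21 -0.36 to 0.021, crygm2d3 -0.17 to 0.37. The median over the tested lens genes was 0.15 without mutant 2 and -0.16 without mutant 6. The mean log2 difference of each class sum moved by less than 1 SD in all 12 alternatives, a margin that leaving out 1 library can hardly exceed. With a library left out it ranged from -0.21 to 0.16 for gamma M2d and from -0.14 to 0.13 for beta. Its sign therefore depended on the libraries kept. The cause of these shifts was not tested. The alpha B, gamma S and most flanking gamma M genes had too few counts to be tested. Whether depth or a low level underlies this was not tested. Divided reads limit single M2d genes. Counts were also not whole in at least 1 library for 8 of the 13 beta, 3 of the 20 other gamma and 3 of the 7 membrane genes.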
